A study of Mus musculus with 4 samples.

Results

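The otic vesicle, the epithelial sac from which the inner ear and its sensory neurons arise, is divided into territories by transcription factors, and 10 genes for such patterning factors were followed here: Hmx2, Hmx3, Pax2, Pax8, Dlx5, Dlx6, Gbx2, Otx1, Tbx1 and Tbx2. They were chosen by name, and all 10 were found among the 25239 gene symbols of the tables. The RNA came from cochleovestibular ganglia (CVG) of mouse embryos at day 11.5; these ganglia hold the young auditory and vestibular neurons and lie beside the otic vesicle. There was 1 library for each of 4 genotype labels, control, Isl1CKO, Pou4f1KO and DKO, read here as no deletion, conditional deletion of Isl1, deletion of Pou4f1 and deletion of both. The Cre driver, the exact alleles, the control genotype and the number of embryos per library are not given in the sources used here.

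Levels are given in TPM, a unit scaled for gene length and library total. Libraries were compared by the log2 ratio of (TPM + 1). On this scale the differences of weakly expressed genes come out too small. Genes are called higher or lower from a ratio of 1 or −1 onward, a 2-fold difference. Since each label has 1 library, no difference has a replicate check, no test could be made, and neighbouring levels cannot be ordered beyond a spread. All 10 genes reached 1 TPM in at least 1 library and so stood among the 15049 compared genes. Pax8 was above 1 TPM only in Pou4f1KO and the library labelled DKO. In bulk tissue, fewer cells of a type and less RNA per cell cannot be told apart.

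The aligned sequence came to 13.6 to 16.6 gigabases per library, and 1 TPM corresponded to a mean read depth of 4.95 to 5.93. Pou4f1 stood at 146 TPM in control, 188 TPM in the library labelled Isl1CKO, 16.6 TPM in Pou4f1KO and 14.6 TPM in the library labelled DKO. Isl1 was at 450 TPM in control, 854 TPM in the library labelled Isl1CKO, 340 TPM in Pou4f1KO and 579 TPM in the library labelled DKO, so its level goes against both labels that mark its deletion. Pou4f1, in contrast, was low in both libraries whose labels mark its deletion. Reads from exons outside a deletion would count toward these levels, and the exact alleles are not given. The values of Isl1 therefore do not check its labels. The labelled tissue was checked with 22 genes of CVG neurons, of which the 20 other than Isl1 and Pou4f1 summed to 3232 to 3618 TPM in the 4 libraries, with Neurod1, an early neuronal factor, at 641 to 941 TPM. Against control, the library labelled Isl1CKO had 1 of the 22 higher and 1 lower, Pou4f1KO had 1 higher and 2 lower, and the library labelled DKO had 0 higher and 7 lower (Neurog1, Isl2, Pou4f1, Pou4f2, Ntrk2, Gata3 and Prrxl1).

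As background, the otic placode first expresses Pax8 and then Pax2, paired-box factors that are needed together for the inner ear to form. Signals from the hindbrain and from the surrounding tissue then set up dorsal, ventral, medial and posterior domains. Hmx2, Hmx3, Dlx5, Dlx6 and Gbx2 act in the dorsal part, which forms the vestibular organ, Otx1 acts ventrally and laterally, and Tbx1 restrains the neuron-forming domain. Several of these genes have other sites of expression nearby: Pax2 and Pax8 in hindbrain and spinal interneurons, Dlx5 and Dlx6 in the branchial arches, and Tbx1 in the pharyngeal mesoderm and endoderm.

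The stretches before the annotated starts are shown for 4 of the genes, because Hmx2 and Hmx3 are neighbours on chromosome 7 that were lower together, whereas Tbx1 and Pax8 were higher in 1 mutant library each. They are RefSeq sequences of build GRCm38.p6, the assembly that the files call mm10, written 5′ to 3′ along the gene's strand. Capitals mark CpG dinucleotides, the sites of DNA methylation in mammals. The stretch of Hmx3 (chr7:131542713-131542866, plus strand) ends where an exon begins in GENCODE M21, and that of Hmx2 (chr7:131548507-131548756, plus strand) lies before the upstream one of its starts. That of Tbx1 is chr16:18590672-18590921 (minus strand) and lies before the most upstream of its starts. That of Pax8 is chr2:24475600-24475849 (minus strand).
Hmx3: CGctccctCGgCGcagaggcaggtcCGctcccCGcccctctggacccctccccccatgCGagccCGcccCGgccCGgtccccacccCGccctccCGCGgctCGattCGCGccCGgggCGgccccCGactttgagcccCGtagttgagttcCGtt
Hmx2: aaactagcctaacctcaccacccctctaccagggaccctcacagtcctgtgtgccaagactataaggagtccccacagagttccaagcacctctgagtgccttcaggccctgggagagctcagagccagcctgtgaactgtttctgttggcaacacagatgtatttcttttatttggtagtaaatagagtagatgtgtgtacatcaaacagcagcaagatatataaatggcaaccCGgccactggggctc
Tbx1: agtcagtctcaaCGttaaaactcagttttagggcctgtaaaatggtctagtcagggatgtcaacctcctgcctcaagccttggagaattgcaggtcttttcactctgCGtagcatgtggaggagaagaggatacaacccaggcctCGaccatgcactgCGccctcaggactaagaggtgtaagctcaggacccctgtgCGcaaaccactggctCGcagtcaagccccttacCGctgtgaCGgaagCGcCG
Pax8: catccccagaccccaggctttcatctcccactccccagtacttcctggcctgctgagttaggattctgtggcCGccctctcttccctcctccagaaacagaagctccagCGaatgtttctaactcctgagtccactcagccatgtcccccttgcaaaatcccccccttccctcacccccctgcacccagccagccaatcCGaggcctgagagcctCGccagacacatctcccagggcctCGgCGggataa
The 154 bases of Hmx3 hold 20 CpG dinucleotides, the 250 bases of Hmx2 hold 1, those of Tbx1 hold 10 and those of Pax8 hold 6. The 250 bases before another start of Tbx1, not shown, hold 17, so these numbers depend on the start chosen. RefSeq windows from 250 bases before to 50 bases after a start numbered 10 for the members. Those with bases left before an exon of the gene in GENCODE M21 were searched on both strands, and the others were not. The searched windows came from 6 of the 10 genes (Hmx2, Hmx3, Pax2, Pax8, Gbx2 and Tbx1). The words were TAATTA and ATAATTA, of homeodomain and POU-homeodomain type, of which the second contains the first, and CTAATG, of LIM-homeodomain type. None of the searched windows held any of the 3 words. Among all 32851 windows of this length, TAATTA stood in 5.29%, ATAATTA in 2.70% and CTAATG in 7.36%.

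Most of the patterning genes were lower in the mutant libraries, in different numbers. In the library labelled Isl1CKO 1 of 10 was at least 2-fold lower than control (Gbx2) and 0 were higher, where 0.618% of all compared genes were lower and 0.585% higher (1.23% and 0.75% of the 6398 genes at 1 to 20 TPM in control, the range of most members). In Pou4f1KO 8 of 10 were lower and Pax8 was higher, where 1.73% of compared genes were lower and 0.977% higher (3.03% and 1.11% at 1 to 20 TPM). In the library labelled DKO 6 of 10 were lower and Tbx1 was higher, where 2.34% were lower and 1.01% higher (3.91% and 1.33% at 1 to 20 TPM). The median log2 ratio of the 10 genes was −0.49, −1.28 and −1.61, against −0.02, 0.02 and −0.01 over all compared genes. The 3 comparisons share the control library, so their values are not independent of each other.

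**Figure D1:**
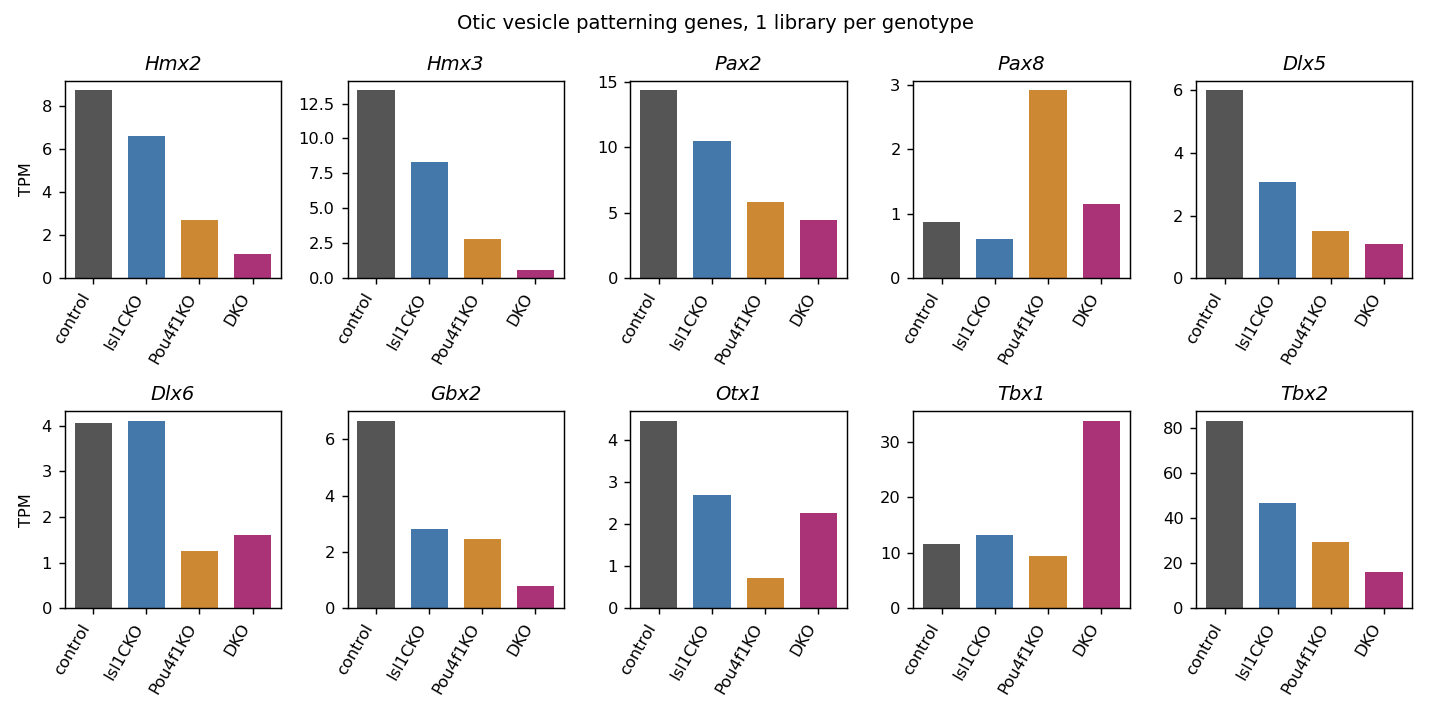
Bars give the level in TPM (y axis, from 0, a separate scale for each gene) of the 10 patterning genes in the 4 libraries, 1 library per bar, with no error bars. Hmx2, Hmx3, Pax2, Dlx5, Gbx2 and Tbx2 are lowest in the library labelled DKO, whereas Tbx1 is highest there and Pax8 is highest in Pou4f1KO.

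Of the Hmx genes, homeobox genes needed for the semicircular canals and the vestibular sensory organs, Hmx3 had the widest range of the 10 members, with its highest TPM 22.7 times its lowest, against 7.77 times for Hmx2. Hmx3 (chromosome 7, 131542963 to 131544931, plus strand, 2 exons) was at 13.4 TPM in control, 8.30 TPM in the library labelled Isl1CKO, 2.79 TPM in Pou4f1KO and 0.593 TPM in the library labelled DKO. Control was thus the highest library and the one labelled DKO the lowest, at a mean read depth of 3.45 over the gene against 79.7 in control. Its log2 ratio to control was −0.63, −1.93 and −3.18 in the 3 mutant libraries, and 3 of the 15049 compared genes had a lower ratio than the last of these. Hmx2 (chromosome 7, 131548757 to 131558014, plus strand, up to 3 exons) starts 3826 bp beyond the end of Hmx3. It was at 8.73 TPM in control, 6.64 TPM in the library labelled Isl1CKO, 2.70 TPM in Pou4f1KO and 1.12 TPM in the library labelled DKO, with log2 ratios of −0.35, −1.39 and −2.20. Both genes thus followed the same order of libraries, but not by equal amounts: the TPM of Hmx2 relative to that of Hmx3 was 0.650 in control, 0.799 in the library labelled Isl1CKO, 0.969 in Pou4f1KO and 1.90 in the library labelled DKO.

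The genes on either side of the Hmx pair did not share its differences. Bub3, a mitotic checkpoint gene 2356 bp beyond Hmx2, had 173 TPM in control and 160 TPM in the library labelled DKO (log2 ratio −0.11). Acadsb, a mitochondrial acyl-CoA dehydrogenase gene on the other side, was at 39.9 and 44.6 TPM (0.15). The paralog Hmx1, on another chromosome and known from sensory ganglia and the eye and ear, was at 107 TPM in control, 161 TPM in the library labelled Isl1CKO, 91.0 TPM in Pou4f1KO and 183 TPM in the library labelled DKO. Its log2 ratio was 0.59, −0.23 and 0.78, so it was short of 2-fold from control in each mutant library.

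Pax2 and Pax8, the paired-box genes, differed from each other. Pax2 (chromosome 19, 44746601 to 44838269, plus strand, up to 11 exons) was at 14.4 TPM in control, 10.5 TPM in the library labelled Isl1CKO, 5.82 TPM in Pou4f1KO and 4.48 TPM in the library labelled DKO. It was past 2-fold lower in Pou4f1KO (log2 ratio −1.17) and in the library labelled DKO (−1.49), and was at −0.41 in the library labelled Isl1CKO. Pax8 (chromosome 2, 24420551 to 24475599, minus strand, up to 12 exons) was at 0.867 TPM in control, 0.600 TPM in the library labelled Isl1CKO, 2.91 TPM in Pou4f1KO and 1.15 TPM in the library labelled DKO. Pou4f1KO was the high library (log2 ratio 1.07), and the other 3 lay at or near 1 TPM, with a mean read depth of 2.97 to 6.71. The TPM of Pax2 was 16.6 times that of Pax8 in control, 17.5 times in the library labelled Isl1CKO, 2.0 times in Pou4f1KO and 3.89 times in the library labelled DKO. Pax8 passed the filter only through its higher libraries, so its call in Pou4f1KO supports nothing by itself.

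Genes of the hindbrain and spinal cord, where Pax8 and Pax2 are also expressed, summed to a higher level in Pou4f1KO as well. Of 30 compared hindbrain and neural tube genes 19 were higher and 3 lower in that library, but 17 of the 30, with 14 of those higher, reached 1 TPM there alone and so had to be high there. Of the other 13, 5 were higher and 3 lower, with a median log2 ratio of 0.38. The summed level of all 42 listed genes, with no filter, was 636 TPM there and 462 to 500 TPM in the other 3 libraries. Among them, Olig3, a dorsal neural tube factor, stood at 0.447 TPM in control against 13.9 TPM in Pou4f1KO. Pax6, a Pax paralog of the ventral neural tube, stood at 0.641 and 5.86 TPM. Both genes reached 1 TPM in Pou4f1KO alone and so had to be high there. Of 42 listed genes 3 were at 0 in control and 1 in Pou4f1KO. Of 11 compared Hox genes 10 were higher in Pou4f1KO, of which 8 reached 1 TPM in that library alone. The 18 listed Hox genes summed to 103 TPM there and to 35.7 to 42.9 TPM in the other libraries. The part of such tissue in the value of Pax8 was not tested.

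The Dlx genes, distal-less homeobox genes that form a convergent pair on chromosome 6, were lower in the same libraries. Dlx5 (6877801 to 6882068, minus strand, up to 3 exons) was at 5.99 TPM in control, 3.08 TPM in the library labelled Isl1CKO, 1.49 TPM in Pou4f1KO and 1.09 TPM in the library labelled DKO. Dlx6 (6863334 to 6867970, plus strand, up to 4 exons) lies 9831 bp from it and was at 4.04 TPM in control, 4.11 TPM in the library labelled Isl1CKO, 1.26 TPM in Pou4f1KO and 1.59 TPM in the library labelled DKO. Both were lowest in the 2 libraries in which Pou4f1 is marked as deleted. Dlx5 had log2 ratios to control of −0.78, −1.49 and −1.74. Dlx6 had ratios of 0.02, −1.16 and −0.96. It stayed just short of the threshold on the (TPM + 1) scale in the library labelled DKO, where its TPM was 0.394 times that in control. Its value of 0.02 became −0.07 with scaling to pan-neuronal genes. Dlx6os1, an antisense RNA gene that overlaps Dlx6, was at 0.190 to 0.429 TPM in the 4 libraries, under the filter. Of the other Dlx genes, Dlx3, known from ectoderm and placodes, was at 5.64 TPM in control, 3.27 TPM in the library labelled Isl1CKO, 2.13 TPM in Pou4f1KO and 1.63 TPM in the library labelled DKO. Dlx1 (32.6 TPM in control) and Dlx2 (14.2 TPM) had log2 ratios between 0.03 and 0.50.

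Gbx2, a homeobox gene needed for the dorsal otic domain and for the boundary of midbrain and hindbrain, was the 1 member past 2-fold in the library labelled Isl1CKO. Gbx2 (chromosome 1, 89927962 to 89931176, minus strand, 2 exons) was at 6.66 TPM in control, 2.82 TPM in the library labelled Isl1CKO, 2.45 TPM in Pou4f1KO and 0.792 TPM in the library labelled DKO. The single mutants were close to each other and the library labelled DKO was lower than both. The log2 ratios were −1.003, −1.15 and −2.10. The first lies at the threshold: it was −0.99 under median-of-ratios scaling, −0.74 with FPKM, the length- and depth-scaled fragment value, and −0.65 when libraries were scaled to equal otic epithelium genes.

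Otx1, an orthodenticle homeobox gene needed for the horizontal semicircular canal, had its lowest value in Pou4f1KO. Otx1 (chromosome 11, 21994764 to 22001651, minus strand, up to 5 exons) was at 4.47 TPM in control, 2.71 TPM in the library labelled Isl1CKO, 0.728 TPM in Pou4f1KO and 2.27 TPM in the library labelled DKO. The library labelled DKO was thus close to the one labelled Isl1CKO and above Pou4f1KO. The log2 ratios to control were −0.56, −1.66 and −0.74, and the last of these became 0.02 when libraries were scaled to equal otic epithelium genes. Its paralog Otx2, a gene of forebrain, midbrain and ventral otic epithelium, was at 10.2 TPM in control, 8.75 TPM in the library labelled Isl1CKO, 3.53 TPM in Pou4f1KO and 6.25 TPM in the library labelled DKO, again lowest in Pou4f1KO (log2 ratio −1.31).

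The T-box genes Tbx2 and Tbx1 lay at opposite ends in the library labelled DKO. Tbx2 (chromosome 11, 85832615 to 85841948, plus strand, 7 exons), a repressor with roles in otic and many other tissues, had the highest level of the 10 genes in control. It was at 83.4 TPM in control, 46.7 TPM in the library labelled Isl1CKO, 29.6 TPM in Pou4f1KO and 16.3 TPM in the library labelled DKO, at mean read depths of 95.1 to 494. This is the best covered value among the 10 genes in control, and the order of libraries was that of Hmx3. The log2 ratios were −0.82, −1.46 and −2.28. The non-coding gene 2610027K06Rik, which lies 227 bp before Tbx2 on the other strand, was at 4.22, 2.55, 1.30 and 1.39 TPM in the same order of libraries. The close paralog Tbx3 was not lower: it was at 50.7 TPM in control, 80.7 TPM in the library labelled Isl1CKO, 69.7 TPM in Pou4f1KO and 102 TPM in the library labelled DKO.

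Tbx1 (chromosome 16, 18580979 to 18590671, minus strand, up to 9 exons), whose loss in mice enlarges the otic neurogenic domain, was at 11.7 TPM in control, 13.1 TPM in the library labelled Isl1CKO, 9.38 TPM in Pou4f1KO and 33.8 TPM in the library labelled DKO. The last library stood alone, at a mean read depth of 147 against 34.4 to 51.8 in the others. The log2 ratios to control were 0.16, −0.29 and 1.46, and the value in Pou4f1KO became 0.45 when libraries were scaled to equal otic epithelium genes. Against Pou4f1KO the library labelled DKO had a log2 ratio of 1.74, which 10 of the 15049 compared genes exceeded. Its neighbours Gnb1l (4.36 TPM in control and 3.80 TPM in the library labelled DKO) and Gp1bb (24.3 TPM in both) did not share the difference.

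**Figure D2:**
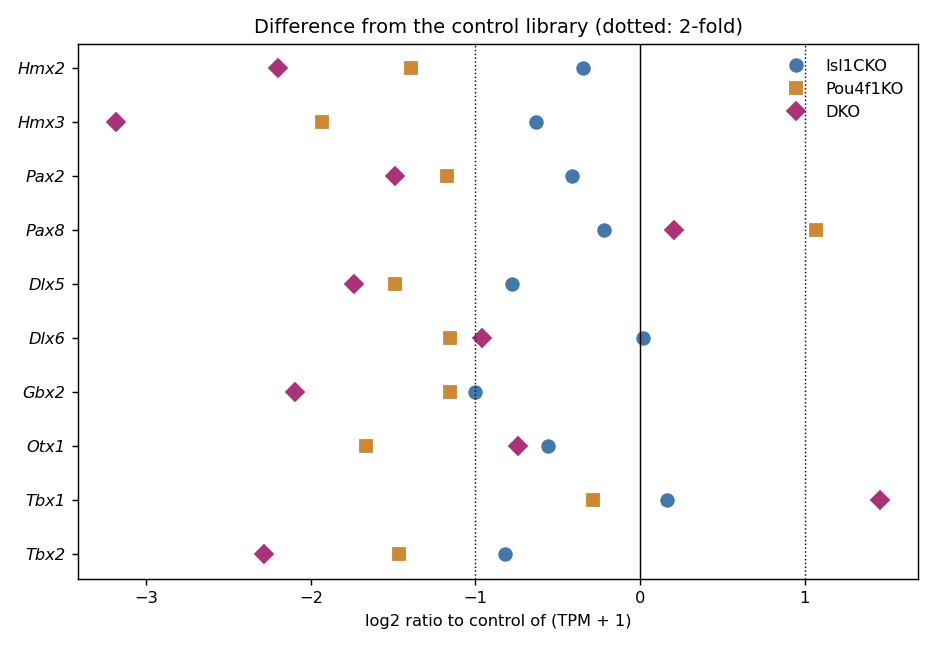
Points give the log2 ratio of (TPM + 1) to the control library (x axis) for each patterning gene (y axis) in 3 mutant libraries, 1 library per symbol, and dotted lines mark 2-fold. In the library labelled DKO the ratios run from −3.18 for Hmx3 to 1.46 for Tbx1.

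Pharyngeal and arch genes were examined beside Tbx1, since Tbx1 is also made there. Of 25 compared genes of pharyngeal mesoderm and arch mesenchyme 1 was higher and 2 lower in the library labelled DKO than in control, with a median log2 ratio of 0.26. Against the library labelled Isl1CKO 7 were higher and 0 lower (median 0.73), and against Pou4f1KO 3 were higher and 1 lower (median 0.40). The summed level of the 32 listed genes was 538 TPM in control, 344 TPM in the library labelled Isl1CKO, 537 TPM in Pou4f1KO and 573 TPM in the library labelled DKO. Tcf21, a pharyngeal muscle progenitor factor, was at 0.0489 to 0.248 TPM. Prrx2 was at 12.8 TPM in control, 5.71 TPM in the library labelled Isl1CKO, 6.01 TPM in Pou4f1KO and 17.7 TPM in the library labelled DKO. Twist2 was at 5.05, 2.30, 3.02 and 8.61 TPM in the same order. Both were thus highest in the library labelled DKO, as Tbx1 was, whereas Msc, at 84.5, 33.1, 160 and 62.1 TPM, was highest in Pou4f1KO. Pax1 and Pax9, Pax paralogs of the pharyngeal pouches and sclerotome, were at 0.363 and 0.342 TPM in control and at 1.92 and 2.03 TPM in the library labelled DKO, and both reached 1 TPM in that library alone. The part of such tissue in the value of Tbx1 was not tested.

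Against the single mutants the library labelled DKO again showed lower and higher members. Against the library labelled Isl1CKO 5 of 10 were lower (Hmx2, Hmx3, Pax2, Gbx2 and Tbx2) and Tbx1 was higher, with a median of −1.02, where 1.23% of compared genes were lower and 0.87% higher (1.7% and 1.42% at 1 to 20 TPM). Against Pou4f1KO Hmx3 was lower (log2 ratio −1.25) and Tbx1 was higher, with 8 members between and a median of −0.56, where 1.12% of compared genes were lower and 0.645% higher (1.34% and 0.891% at 1 to 20 TPM). Otx1 was at 0.92 in that comparison, Gbx2 at −0.94, Pax8 at −0.86, Tbx2 at −0.82 and Hmx2 at −0.80. All were short of the threshold on the (TPM + 1) scale. Without the added 1 TPM, the TPM of Otx1 was 3.11 times that in Pou4f1KO. That of Gbx2 was 0.324 times, Pax8 0.396 times, Hmx2 0.416 times and Tbx2 0.552 times.

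The difference tied to each label can be read in both backgrounds from pairs of libraries with none in common. For the Isl1 label, 7 of 10 genes had a log2 ratio below 0 both with Pou4f1 intact and in the Pou4f1 mutant background, as did 33.9% of all compared genes. Gbx2 had ratios of −1.003 and −0.94 there and Tbx2 of −0.82 and −0.82, whereas Hmx3 had −0.63 and −1.25. For the Pou4f1 label, 8 of 10 were below 0 in both backgrounds, as were 26.5% of all compared genes. Tbx2 had ratios of −1.46 and −1.46, Pax2 of −1.17 and −1.07 and Hmx3 of −1.93 and −2.55. For each gene the gap between its 2 ratios is the same for both labels by construction, so the labels are not separate checks of it. The marker lists described here also differ between the libraries of these pairs, and their part in these ratios was not tested.

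**Figure D3:**
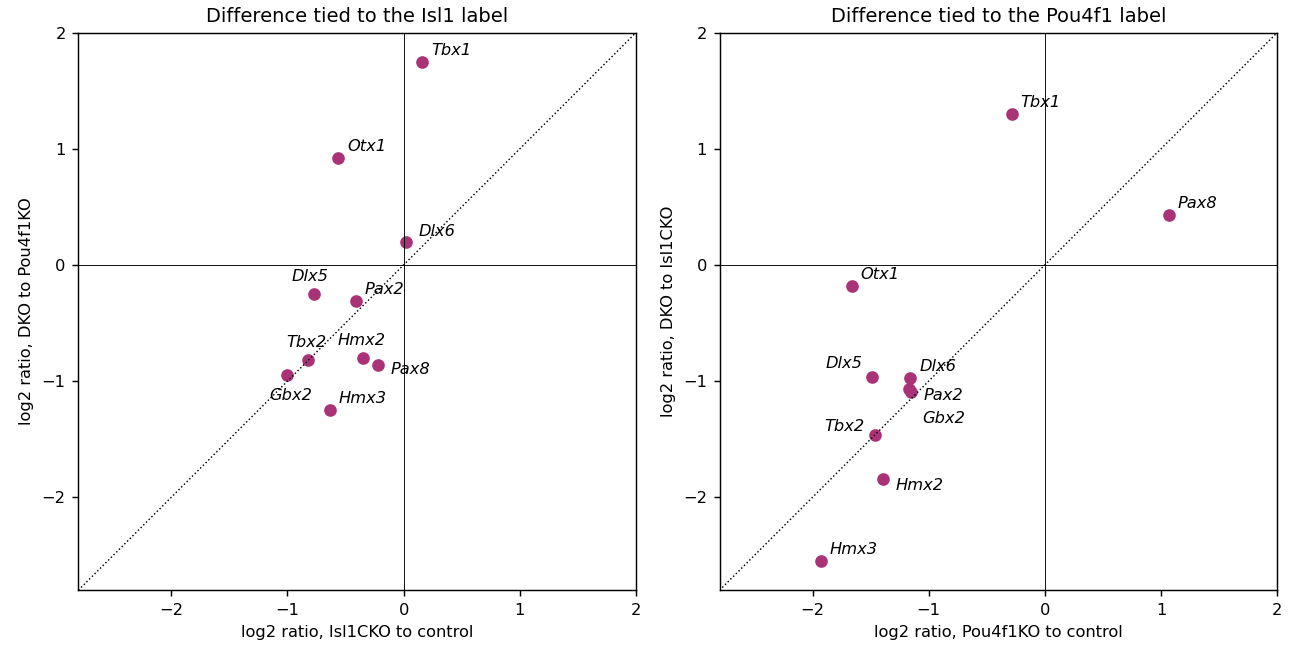
Each point is 1 patterning gene, placed by the log2 ratio of (TPM + 1) tied to 1 label in 2 backgrounds: for Isl1 (left), Isl1CKO to control against DKO to Pou4f1KO; for Pou4f1 (right), Pou4f1KO to control against DKO to Isl1CKO. The dotted line marks equal ratios. Tbx2 lies on it (−0.82 and −0.82 at left, −1.46 and −1.46 at right), and Tbx1 lies above it. A gene's offset from the line is the same in both panels by construction, so the panels are not separate checks of it.

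The departure from additivity is the DKO-to-control log2 ratio minus the summed ratios of the single mutants. For either label it also equals the ratio in the mutant background minus that in the intact one. The departure uses all 4 libraries and has no error. It was at least 1 for 2 of 10 genes, Tbx1 (1.58) and Otx1 (1.48), and at or below −1 for 0, where 1.41% of compared genes were that far above 0 and 1.11% that far below (2.58% and 1.17% at 1 to 20 TPM). Tbx2 (0.00), Gbx2 (0.06) and Pax2 (0.10) lay nearest to 0, and all 3 turned negative with scaling to otic epithelium genes, those of Gbx2 and Tbx2 also with smaller pseudocounts. Hmx3 had −0.62 and Pax8 −0.64. Hmx3 came to −1.37 with a pseudocount of 0.1 TPM and to −1.002 with scaling to otic epithelium genes. Of the 25 compared genes of pharyngeal mesoderm and arch mesenchyme, 9 had a departure of at least 1 and 0 had one at or below −1 (median 0.95). The part of such tissue in the departure of Tbx1 was not tested.

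The patterning genes were set beside markers of the otic epithelium that are not among them. Of 24 compared otic epithelium markers, 2 were lower in the library labelled Isl1CKO, 11 in Pou4f1KO and 13 in the library labelled DKO, and 0 were higher in any. Their median log2 ratio was −0.54, −0.72 and −1.14, between those of the patterning genes and of all genes in 2 of the 3 libraries and below both in the library labelled Isl1CKO. Their summed level was 1490 TPM in control, 1182 TPM in the library labelled Isl1CKO, 1121 TPM in Pou4f1KO and 943 TPM in the library labelled DKO, with 0 or 1 of 26 at 0 in a library. Of 11 compared surface ectoderm markers 8 were lower in Pou4f1KO and 8 in the library labelled DKO. Among those lower in both, Epcam and Cdh1 are also otic epithelium markers, so the lists are not independent. Krt5 (log2 ratio 0.38) and Tfap2a (0.85) were the 2 above 0 in Pou4f1KO. When libraries were scaled to equal otic epithelium markers, 0 of the 10 patterning genes were past 2-fold lower in the library labelled Isl1CKO, 2 in Pou4f1KO (Hmx3 at −1.23 and Otx1 at −1.12) and 5 in the library labelled DKO. Those 5 were Hmx3 (−2.50), Hmx2 (−1.46), Gbx2 (−1.42), Tbx2 (−1.31) and Dlx5 (−1.03). The part of otic epithelium in the dissected tissue was not measured otherwise, so its part in these ratios was not tested.

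**Figure D4:**
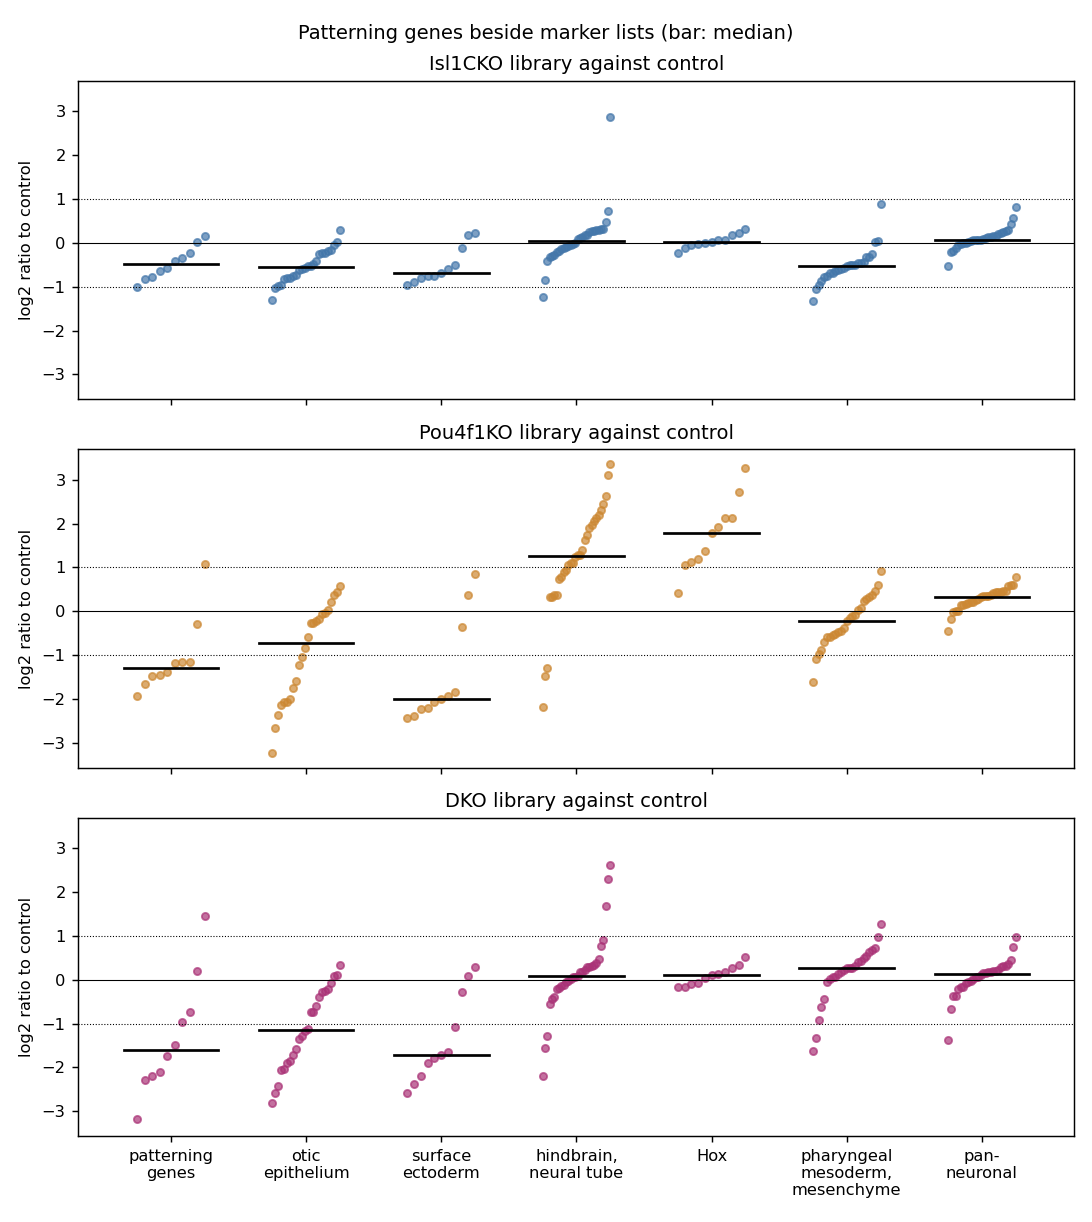
Each point is 1 gene, placed by its log2 ratio of (TPM + 1) to control (y axis), in the patterning genes and 6 marker lists (x axis), with 1 panel per mutant library, a bar at each median and dotted lines at 2-fold. In Pou4f1KO the medians are −1.28 for the patterning genes and −0.72 for otic epithelium; the high points of the hindbrain and Hox lists there are mostly genes that reached 1 TPM in that library alone.

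Other genes of otic vesicle development were read from a list of 58, of which 54 were compared. Some of them, such as Emx2, Lmx1a and Bmp4, also stand among the otic epithelium markers, so the lists are not independent. In the library labelled Isl1CKO 4 were lower and 0 higher, in Pou4f1KO 16 lower and 3 higher (2 of them at 1 TPM in that library alone), and in the library labelled DKO 20 lower and 0 higher. Emx2, a homeobox gene of the otic epithelium, was at 7.997, 3.56, 1.06 and 1.19 TPM in control, the library labelled Isl1CKO, Pou4f1KO and the library labelled DKO. Lmx1a, a LIM-homeobox gene of the dorsal otic domain, was at 36.5, 18.1, 6.26 and 7.97 TPM in the same order, and Eya4, a transcriptional co-activator, at 38.4, 25.7, 12.8 and 11.1 TPM. These genes were low in both libraries in which Pou4f1 is marked as deleted, as were Hmx2, Hmx3, Pax2 and Dlx5. Gata3, needed for the otic epithelium and auditory neurons, followed the Isl1 label, at 38.5, 7.39, 49.9 and 9.43 TPM. Fgf10, a signal of the neurogenic domain, was at 96.5, 46.7, 144 and 57.5 TPM.

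The departure was above 0 for 32 of the 54 genes, where it was above 0 for 7175 of the 15049 compared genes. It was at least 1, as for Tbx1, for 7 of the 54, where 1.41% of compared genes were that far above 0. Cyp26c1, which degrades retinoic acid, was at 19.7 TPM in control, 7.95 TPM in the library labelled Isl1CKO, 2.16 TPM in Pou4f1KO and 20.8 TPM in the library labelled DKO, a departure of 4.00. Bmp4, a signal made in the otic epithelium and elsewhere, was at 4.20, 1.92, 2.46 and 5.60 TPM, a departure of 1.77. A departure at or below −1 was found for 1 of the 54 genes (Pax6, −2.19), where 1.11% of compared genes were that far below 0. Pax6 reached 1 TPM in Pou4f1KO alone.

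Genes with the most similar pattern were named for the 7 members that reached 5 TPM, by the Euclidean distance between the 3 log2 ratios to control, among 12055 other genes at 5 TPM or more. These ratios share the control library, so a short distance is a description only. For Tbx2 they were Otogl (distance 0.14) and Otoa (0.17), for Hmx2 Otog (0.21), and for Gbx2 the signal gene Wnt7b (0.19) and Otoa (0.27). Otog, Otogl and Otoa encode proteins of the acellular membranes over the sensory epithelia. Otogl had 7.65 TPM in control and 0.928 TPM in the library labelled DKO. For Pax2 they were Rassf9 (0.06) and Aldh1a3 (0.10), a retinoic acid-synthesizing enzyme at 17.6 TPM in control and 5.26 TPM in the library labelled DKO. For Dlx5 they were Epn3 (0.04) and Brip1 (0.13), and for Hmx3 they were Ppp1r1c (0.33) and Prr15 (0.54). For Tbx1 the nearest were Foxd2os (0.45) and Gm15772 (0.49). The row of Gm15772 overlaps that of Rpl26, with a sum of 1537 TPM in control and 1497 TPM in the library labelled DKO.

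Among 29 measured paralogs of the families 14 were compared: 2 were higher and 2 lower in Pou4f1KO, and 3 higher and 1 lower in the library labelled DKO. The higher ones in Pou4f1KO were Pax3 (6.53 TPM there and a log2 ratio of 1.33), a dorsal neural tube and neural crest gene, and Pax6, which reached 1 TPM in that library alone. The higher ones in the library labelled DKO were Pax1, Pax9 and Tbx18, a mesenchymal T-box gene at 8.64 TPM in control and 22.3 TPM there. Dlx3 was lower in both Pou4f1KO and the library labelled DKO, and Otx2 in Pou4f1KO. The median log2 ratio of the 14 was −0.15, 0.09 and 0.27 in the 3 mutant libraries, against −0.49, −1.28 and −1.61 for the patterning genes.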

How the data were processed

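RNA from cochleovestibular ganglia was measured in 4 libraries, 1 per genotype label, as strand-specific libraries from total RNA of dissected, frozen ganglia, per the labels' protocols. The submitters' processing notes name HISAT2, StringTie, SAMtools, FastQC and Trimmomatic with build mm10, without order, versions or settings, and the annotation was not given. The authors' deposited values were TPM, FPKM and coverage (a signal, the mean read depth), per the file headers. No read counts or read lengths were used, so no counting interval is given. Rows sharing a symbol were summed, genes at 1 TPM or more in a library were compared, and log2 ratios used a pseudocount of 1 TPM (Python 3.11.15, pandas 2.3.3); the calculation was tested on simulated data. All 10 genes matched GENCODE M21. The genes, lists and naming rule (members, family paralogs, otic genes, marker lists, overlapping or adjacent genes, the 2 nearest patterns per member) were chosen with earlier results of these data known; some genes that the rule names are not reported here. Other lists were neural crest and glia (12 compared genes, median log2 ratio −0.07, 0.31 and 0.06 in the libraries labelled Isl1CKO, Pou4f1KO and DKO) and pan-neuronal genes (28, 0.08, 0.33 and 0.14). Alternatives were other pseudocounts, FPKM, 4 scalings, other filters and thresholds.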

Additional observations from a re-analysis of the deposited data

Results flagged for a closer look

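For 2 of the 10 genes the difference tied to 1 label pointed in opposite directions in the 2 backgrounds, each value coming from 1 pair of libraries. For either label 9 of 10 members had the same sign in both backgrounds. Among all compared genes 56.3% did for the Isl1 label and 60.2% for the Pou4f1 label, so opposite signs were common. Otx1 had a log2 ratio of −0.56 between the library labelled Isl1CKO and control and of 0.92 between the library labelled DKO and Pou4f1KO. Tbx1 had a log2 ratio of −0.29 between Pou4f1KO and control and of 1.30 between the libraries labelled DKO and Isl1CKO. With scaling to otic epithelium genes these became 0.45 and 1.89, which point the same way, whereas those of Otx1 became −0.24 and 1.14. The difference between backgrounds equals the departure from additivity given above, so it is no further result. It was not tested, since there is 1 library per label.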

How the results depend on the processing

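No paired analysis was possible because each label has 1 library and no result comes from a test. Of 132 alternative counts of patterning genes past 2-fold, 100 stayed within 1.5 times the reported count, and of 420 alternative log2 ratios of single genes 34 moved by more than 1.5-fold, 11 differed in sign and 0 past 2-fold changed sign. For the library labelled Isl1CKO against control, 1 gene was lower; 0 were with FPKM, median-of-ratios scaling, otic epithelium scaling or a 3-fold threshold, and 4 at 1.5-fold. For Pou4f1KO against control, 1 was higher and 8 lower; 0 were higher with FPKM, pan-neuronal scaling, a 5 TPM filter or a 3-fold threshold, and 2 were lower with otic epithelium scaling or a 3-fold threshold. For the library labelled DKO against control, 1 was higher, and 0 at 3-fold. For DKO against Isl1CKO, 1 was higher and 5 lower; 0 were higher at 3-fold, and 3 were lower with FPKM and 2 with otic epithelium scaling or at 3-fold. For DKO against Pou4f1KO, 1 was higher and 1 lower; 2 were higher with a pseudocount of 0.1 or 0.5 TPM, pan-neuronal or otic epithelium scaling or at 1.5-fold, whereas 4 were lower with 0.1 TPM, 3 with 0.5 TPM, 5 at 1.5-fold and 0 with FPKM or at 3-fold. For the departure, 2 were at least 1 and 0 at or below −1; 1 was above with FPKM or a 5 TPM filter and 0 at 3-fold, and 1 was below with 0.1 TPM or otic epithelium scaling and 2 at 1.5-fold. Stricter thresholds and filters call fewer genes by construction; the cause of the other moves was not tested.

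Over all compared genes, pan-neuronal scaling put the median log2 ratio at −0.12, −0.24 and −0.06, from −0.02, 0.02 and −0.01, in the libraries labelled Isl1CKO, Pou4f1KO and DKO, and gave 73 higher and 128 lower, 101 and 400, and 146 and 382, against 88 and 93, 147 and 260, and 152 and 352 as reported. Otic epithelium scaling put it at 0.34, 0.77 and 0.93, with 192 and 29, 1987 and 70, and 5379 and 81. FPKM gave 36 and 25, 71 and 138, and 75 and 186, and a pseudocount of 0.1 TPM gave 220 and 287, 323 and 469, and 343 and 605. Hmx2, Hmx3, Dlx5 and Gbx2 in the library labelled DKO, Otx1 and Dlx6 in Pou4f1KO and Pax8 in 3 libraries stood near or under 1 TPM, where coverage limits the ratios.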
